A study of Caenorhabditis elegans with 6 samples.

Results

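The genes described here encode receptors for acetylcholine, glutamate, GABA and other small transmitters in Caenorhabditis elegans. They were taken by symbol: acr-, lgc-, glr-, gar- or mgl- followed by a number, plus unc-29, unc-38, unc-63, lev-1, lev-8, eat-2, unc-49, nmr-1 and nmr-2. Only probe sets with a single gene symbol were used, and each gene was represented by its probe set with the highest mean over the 6 arrays. This gave 89 genes, 10 of them with more than 1 probe set, of 17118 genes with a probe set of their own and 22548 tested probe sets. A further 13 of the 102 symbols that the rule matches in a reference gene table had no probe set of their own and were not analysed here. By family there were 26 nicotinic acetylcholine receptor subunits, 3 muscarinic receptors, 11 ionotropic and 3 metabotropic glutamate receptors, the GABA-A receptor gene unc-49, and 45 other Cys-loop channel genes of the lgc series.

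The arrays carried whole-worm RNA of the wild-type strain N2, from larvae of the L3 stage kept in 50% K-medium, a dilute salt solution. The 3 Au-NP arrays came from worms given citrate-coated gold particles of 4 nm at 5.9 mg/L for 12 h, then particle-free medium for a further 12 h. The 3 control arrays came from worms that the labels call only control. The labels do not say that replicates came from separate cultures, so p-values measure the spread between these samples, which may be technical.

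Ligand-gated channels of the Cys-loop type are rings of subunits that open an ion pore when a transmitter binds, letting in cations at excitatory synapses or chloride at inhibitory ones. Worm muscle is excited through nicotinic receptors and inhibited through a GABA-gated chloride channel, while glutamate acts in the circuits for touch, locomotion and feeding. Muscarinic and metabotropic glutamate receptors act instead through G proteins. The C. elegans genome holds an unusually large set of such genes, including channels gated by amines, betaine or choline, and many whose ligand is unknown.

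Signals were low for most of the receptor genes. Of the 89 used probe sets, 70 lay below the median of all tested probe sets, 7.07 on the log2 scale, and 24 lay in the lowest quartile, at or below 5.32. Their means ran between 3.84 (glr-10) and 9.80 (lgc-34). Those of lgc-34, lgc-32, lgc-22, unc-49, gar-3 and lgc-21 lay in the highest quartile, above 8.85. Probes differ in how strongly they bind, so these signals do not rank the genes by transcript number, and no detection calls were used. Au-NP replicate 3 stood apart from the other two Au-NP arrays. Over all probe sets, whose values are not independent of each other, Pearson's r was 0.997 between Au-NP replicates 1 and 2 and 0.996 between controls. It was 0.988 and 0.990 between Au-NP replicate 3 and the other two Au-NP arrays, and 0.985 to 0.990 between arrays of different groups.

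Few receptor genes differed between the groups, and the differences were small. With limma and an adjusted p below 0.05 over all 22548 probe sets, lgc-32, lgc-57, lgc-49, acr-15 and acr-19 rose in Au-NP worms and lgc-45 fell. These are 5 of 89 genes higher, or 5.62%, where 6.24% of all tested probe sets were higher, and 1 of 89 lower, or 1.12%, where 5.68% of all probe sets were lower. Taking the highest-mean probe set of each of the 17118 genes, the shares were 7.09% higher and 4.45% lower. The share of receptor genes that rose was thus near that of all genes. At an unadjusted p below 0.05 there were 18 receptor genes higher and 3 lower (20.2% and 3.37%), where 16.1% of all probe sets were higher and 10.4% lower. For 24 receptor genes every Au-NP value exceeded every control value (27%, against 19.2% of all probe sets). For 4 every Au-NP value was below every control value (4.49%, against 11.6%). Of the 17118 genes, 3606 had all Au-NP values above the controls and 1626 had all below.

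Leaving out Au-NP replicate 3 gave 7 receptor genes higher and 3 lower (7.87% and 3.37%), where 9.08% of all probe sets were higher and 8.66% lower. The 5 genes that rose passed again and were joined by lgc-19 and lgc-35, lgc-45 no longer passed (limma, adjusted p = 0.0611), and glr-6, lgc-21 and lgc-27 fell. Leaving out any one of the other 5 arrays gave 1 or 2 higher and 0 lower, where 0.648% to 2.95% of all probe sets were higher and 1.82% to 4.96% lower. In each of those 5 fits lgc-32 was called, and lgc-57 as well without control replicate 1.

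The median difference, Au-NP minus control, was 0.10 log2 units over the receptor genes and 0.03 over all tested probe sets. Over the 17118 genes, with 1 probe set each, it was 0.04. The difference was above 0 for 62 of the 89 receptor genes (69.7%), for 57.4% of all probe sets and for 60.5% of the 17118 genes. The largest difference of either sign was 0.65, none reached 1 log2 unit, and 71 genes lay within 0.25 of 0. The 95% interval of the difference lay within 0.5 log2 units of 0 for 73 genes. Standard errors were like those of the table as a whole, with medians of 0.0969 for receptor genes and 0.0986 for all probe sets. Directions follow the array labels. For some genes outside these families the labelled direction is opposite to the published account as it is remembered, which was not checked, so higher and lower mean higher and lower in the arrays labelled Au-NP. In whole-worm RNA, fewer cells of a type and less RNA per cell cannot be told apart.

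**Figure D1:**
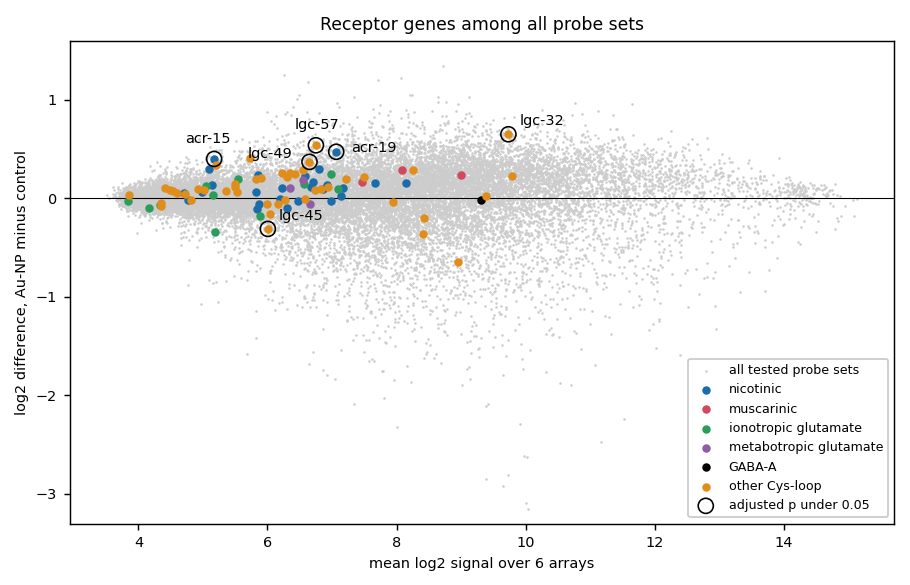
Difference in log2 signal, Au-NP minus control (vertical axis), against the mean log2 signal over 6 arrays (horizontal axis), with all tested probe sets as grey dots, the 89 receptor genes coloured by family, and rings around the 6 that passed an adjusted p of 0.05. The receptor genes lie mostly to the left of 7.07, the median signal, and close to 0, with lgc-32 the only ringed gene above a signal of 8.85.

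lgc-32 had the largest rise. Its log2 signal was 10.05, 9.96 and 10.18 in Au-NP replicates 1 to 3, against 9.47, 9.43 and 9.32 in control replicates 1 to 3. The groups lay well apart, with every array close to its own group. The difference was 0.65 ± 0.09 (SE, n = 3 each), a 1.57-fold higher signal (limma, adjusted p = 0.00760). lgc-32 was also called under each of the 18 alternative settings tried, among which a gene that a setting left out counts as not called. The alternatives with thresholds of 0.01 and 0.1 use the same fit, so their outcome follows from the adjusted p already given.

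lgc-57 read 7.04, 6.96 and 7.06 in Au-NP worms, against 6.70, 6.36 and 6.39 in control worms. The groups did not overlap, and control replicate 1 was the nearest to the Au-NP arrays. The difference was 0.54 ± 0.11 (limma, adjusted p = 0.0209), and it was called in 12 of the 18 alternatives. lgc-49, a gene of the same group of Cys-loop subunits as the acetylcholine-gated chloride channel genes lgc-46 and lgc-47, read 6.87, 6.75 and 6.89 in Au-NP worms, against 6.53, 6.49 and 6.38 in control worms. These groups were also separate, with similar spread on both sides. The difference was 0.37 ± 0.08 (limma, adjusted p = 0.0292), called in 9 of 18 alternatives. The only probe set of lgc-49 is marked for possible cross-hybridization, so the setting without such probe sets leaves the gene out.

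lgc-45 was the only receptor gene that fell. It read 5.88, 5.83 and 5.83 in Au-NP worms, against 6.09, 6.14 and 6.25 in control worms, and the groups did not overlap. The difference was -0.31 ± 0.08 (limma, adjusted p = 0.0409), and 6 of 18 alternatives called it. A second probe set with the symbol lgc-45, under a different gene identifier, differed by -0.02 (limma, adjusted p = 0.938), and the identifier of the used one was not found in the reference table.

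**Figure D2:**
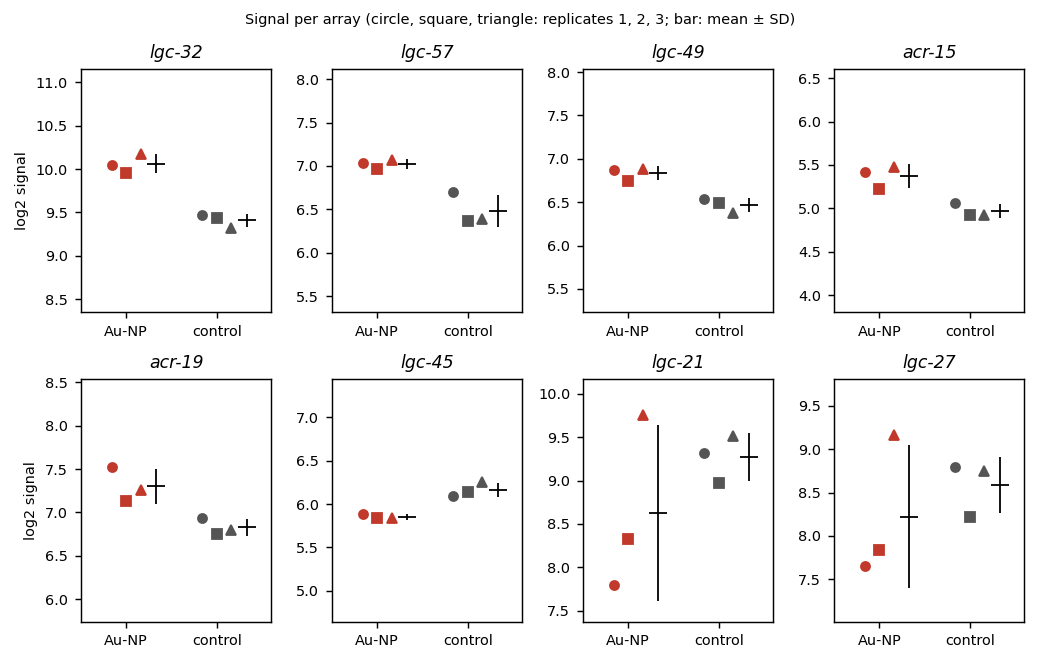
Log2 signal in each array for the 6 receptor genes past an adjusted p of 0.05 and for lgc-21 and lgc-27, Au-NP on the left and control on the right of each panel, with the mean ± SD beside the points and the same span on every vertical axis. The groups are separate in the first 6 panels, and in the panels of lgc-21 and lgc-27 Au-NP replicate 3 lies 1.69 and 1.42 above the mean of the other two Au-NP arrays.

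Among the nicotinic subunits, 2 of 26 rose and 0 fell, where 6.24% of all probe sets were higher and 5.68% lower. An unadjusted p below 0.05 was reached by 6 (23.1%), against 26.5% of all probe sets. Both belong to the ACR-16 group, whose best known member forms the levamisole-insensitive, nicotine-sensitive receptor of body-wall muscle. The 26 differences had a median of 0.11, and 19 were above 0. The signal of acr-15 was 5.42, 5.22 and 5.48 in Au-NP worms, against 5.06, 4.93 and 4.93 in control worms. The groups were separate, at signals in the lowest quartile of the table or just above it. The difference was 0.40 ± 0.09, or 1.32-fold (limma, adjusted p = 0.0356), called in 8 of 18 alternatives. The signal of acr-19 was 7.52, 7.13 and 7.25 in Au-NP worms, against 6.94, 6.76 and 6.79 in control worms. Here too there was no overlap, with Au-NP replicate 1 the highest array. The difference was 0.47 ± 0.12 (limma, adjusted p = 0.0409), called in 11 of 18 alternatives. Across the 10 genes of the ACR-16 group, 9 differences were above 0, with a median of 0.12. The exception was eat-2, which encodes a subunit needed for fast pharyngeal pumping: its signal was 6.25, 6.13 and 6.38 in Au-NP worms and 6.23, 6.27 and 6.55 in control worms, a difference of -0.09 ± 0.11 within the spread of the arrays.

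The levamisole-sensitive receptor of body-wall muscle is built from UNC-29, UNC-38, UNC-63, LEV-1 and LEV-8, and none of the 5 genes passed the test. The log2 signal of unc-29 was 6.83, 6.90 and 7.21 in Au-NP worms and 7.23, 6.80 and 6.98 in control worms, and that of unc-63 was 5.69, 5.71 and 5.97 in Au-NP worms and 5.63, 6.03 and 6.02 in control worms. In both genes the groups overlapped. The differences were -0.02 (95% interval -0.35 to 0.31) for unc-29 and -0.11 (-0.42 to 0.21) for unc-63, the lowest of the nicotinic family. The essential alpha-type subunit gene unc-38 differed by 0.15 (-0.08 to 0.39), lev-1 by 0.16 (-0.06 to 0.38) and lev-8 by 0.11 (-0.21 to 0.42). For lev-1 all Au-NP values, 7.71, 7.61 and 7.92, exceeded the control values of 7.58, 7.56 and 7.61, the nearest pair by less than the rounding used here. The muscle receptor gene acr-16 differed by 0.11 (-0.15 to 0.37) and acr-8, a relative of lev-8, by 0.10 (-0.24 to 0.43).

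With the GABA receptor gene unc-49 added, these are 8 genes known from body-wall muscle, and Au-NP replicate 3 had the highest Au-NP signal for 7 of them, the exception being unc-38. It lay above the mean of Au-NP replicates 1 and 2 by 0.44 for lev-8, 0.39 for acr-8, 0.34 for unc-29, 0.31 for acr-16, 0.27 for unc-63 and 0.26 for lev-1. Without that array, the differences were -0.04 for lev-8, -0.03 for acr-8, -0.14 for unc-29, -0.19 for unc-63, 0.07 for lev-1 and 0.0093 for acr-16, and none of the 8 genes passed. Of 12 markers of body-wall muscle, 5 fell in Au-NP worms and 0 rose, among them the myosin genes unc-54 (-0.97) and myo-3 (-0.75), where 4.45% of all genes fell. The markers unc-27 (0.23) and hlh-1 (0.10), named after their values were seen, had values above 0 and did not pass. The mean signal of these markers was 11.08 to 11.17 in Au-NP arrays, against 11.45 to 11.56 in control arrays. Their part in the values of the muscle receptors was not tested.

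**Figure D3:**
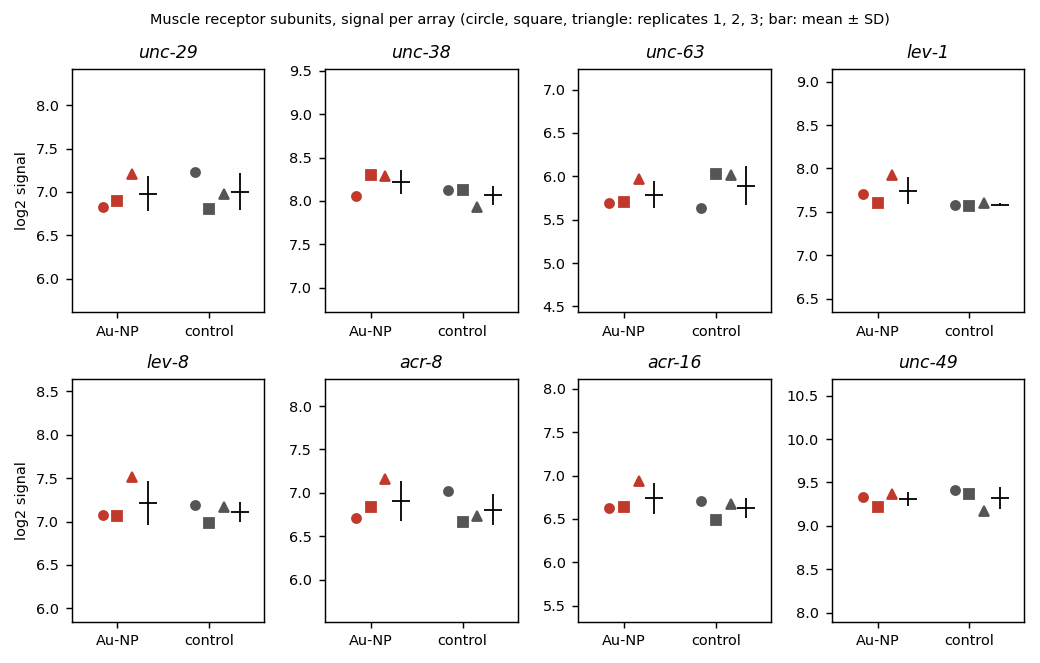
Log2 signal in each array for 7 nicotinic subunit genes and the GABA receptor gene unc-49, all known from body-wall muscle, with Au-NP on the left and control on the right of each panel, the mean ± SD beside the points and the same span on every vertical axis. The groups overlap or nearly touch in all 8 panels, and the Au-NP triangle (replicate 3) is the highest Au-NP point in 7 of them.

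The motor neuron receptor contains ACR-2, ACR-3 and ACR-12 beside UNC-38 and UNC-63. The signal of acr-2 was 6.62, 6.66 and 6.80 in Au-NP worms, against 6.59, 6.38 and 6.44 in control worms, and that of acr-3, its neighbour in the genome, was 5.23, 5.21 and 5.27 in Au-NP worms, against 4.72, 5.12 and 4.99 in control worms. In both genes the lowest Au-NP array exceeded the highest control array, by a narrow margin. The differences of 0.23 ± 0.09 and 0.29 ± 0.11 did not pass (limma, adjusted p = 0.158 and 0.138). acr-12 differed by -0.03 (95% interval -0.23 to 0.17). The 6 acr genes of the DEG-3 group had a median difference of 0.01. The group's other genes, deg-3 and des-2, lie outside the symbol rule and differed by 0.27 and 0.18, neither past the threshold on the probe set used, and 1 of the 2 probe sets of des-2 passed. The acr member acr-23, whose product is gated by betaine and is the target of the anthelmintic monepantel, differed by -0.01 (-0.22 to 0.20).

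All 3 muscarinic receptor genes had higher mean signals in Au-NP worms, where 60.5% of all genes had a difference above 0. None passed the test on the probe set used, where 6.24% of all probe sets were higher and 5.68% lower. An unadjusted p below 0.05 in limma was reached by 1 of the 3, against 26.5% of all probe sets. gar-2, a receptor of the type that couples to Gi and Go, read 8.31, 8.13 and 8.26 in Au-NP worms, against 8.04, 7.93 and 7.85 in control worms. The groups were separate. The difference was 0.29 ± 0.09 (limma, adjusted p = 0.0721). gar-3, which couples to Gq, read 9.01, 9.01 and 9.31 in Au-NP worms, against 8.96, 8.85 and 8.80 in control worms, again without overlap. Its difference was 0.24 ± 0.11 (limma, adjusted p = 0.202), and its other two probe sets gave 0.25 (adjusted p = 0.109) and 0.29 (adjusted p = 0.0481), so that 1 of its 3 probe sets passed. gar-1 differed by 0.16 ± 0.12, with overlapping groups and Au-NP replicate 1 alone above the rest. The median of the 3 genes was 0.24, and it stayed above 0 under every setting tried. These settings draw on the same 6 arrays, and without probe sets of possible cross-hybridization only 2 of the genes remained. The median over all probe sets also stayed above 0 when 1 array was left out (0.011 to 0.042).

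Among the 11 ionotropic glutamate receptor genes 0 rose and 0 fell, at an adjusted p of 0.05 in limma. Of all probe sets, 6.24% were higher and 5.68% lower. An unadjusted p below 0.05 was reached by 2 of these genes (18.2%), against 26.5% of all probe sets. The median difference of the 11 genes was 0.03, and it turned to -0.01 with array weights and to -0.04 without Au-NP replicate 1. Without probe sets of possible cross-hybridization only 8 of the genes remained, and their median was -0.05. glr-6, a non-NMDA type subunit gene, had the lowest value. It read 4.89, 5.01 and 5.15 in Au-NP worms, against 5.42, 5.45 and 5.21 in control worms. Au-NP replicate 3 and control replicate 3 were close, and the groups did not overlap. The difference was -0.34 ± 0.10 (limma, adjusted p = 0.0711). Leaving out Au-NP replicate 3 gave -0.41, which passed (adjusted p = 0.0313). glr-5 had the highest value, with 7.14, 7.02 and 7.19 in Au-NP worms and 6.94, 6.72 and 6.94 in control worms, again separate. Its difference was 0.25 ± 0.09 (limma, adjusted p = 0.133).

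The AMPA-type subunit genes of the command interneurons for locomotion, glr-1 and glr-2, differed by 0.15 (95% interval -0.07 to 0.37) and 0.13 (-0.11 to 0.36). The groups overlapped in both. The second probe set of glr-2 gave -0.06, so the sign for that gene was not settled by the array. glr-3, a kainate-type gene known from cold sensing, differed by -0.09 (-0.29 to 0.10). The NMDA subunit genes nmr-1 and nmr-2 differed by 0.03 (-0.18 to 0.25) and 0.19 (-0.04 to 0.43).

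The metabotropic glutamate receptors likewise had 0 of 3 in either direction, where 6.24% of all probe sets were higher and 5.68% lower. An unadjusted p below 0.05 in limma was reached by 1 of the 3, against 26.5% of all probe sets. The median of the 3 genes was 0.10, and -0.03 without control replicate 1. The gene at the unadjusted threshold, mgl-3, read 6.63, 6.65 and 6.66 in Au-NP worms, against 6.41, 6.53 and 6.44 in control worms. Its groups were separate, and the Au-NP arrays were almost equal. The difference was 0.19 ± 0.07 (limma, adjusted p = 0.138). mgl-1 and mgl-2 differed by -0.06 ± 0.09 and 0.10 ± 0.13, with overlapping groups.

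unc-49 encodes the subunits of the GABA-gated chloride channel that relaxes body-wall muscle. It read 9.33, 9.22 and 9.37 in Au-NP worms and 9.41, 9.37 and 9.18 in control worms, with full overlap. The difference was -0.01 (95% interval -0.23 to 0.20), and its other 3 probe sets gave 0.08, -0.04 and 0.10. The sign changed with the setting, for example to 0.03 with the mean of its probe sets, and the call did not.

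**Figure D4:**
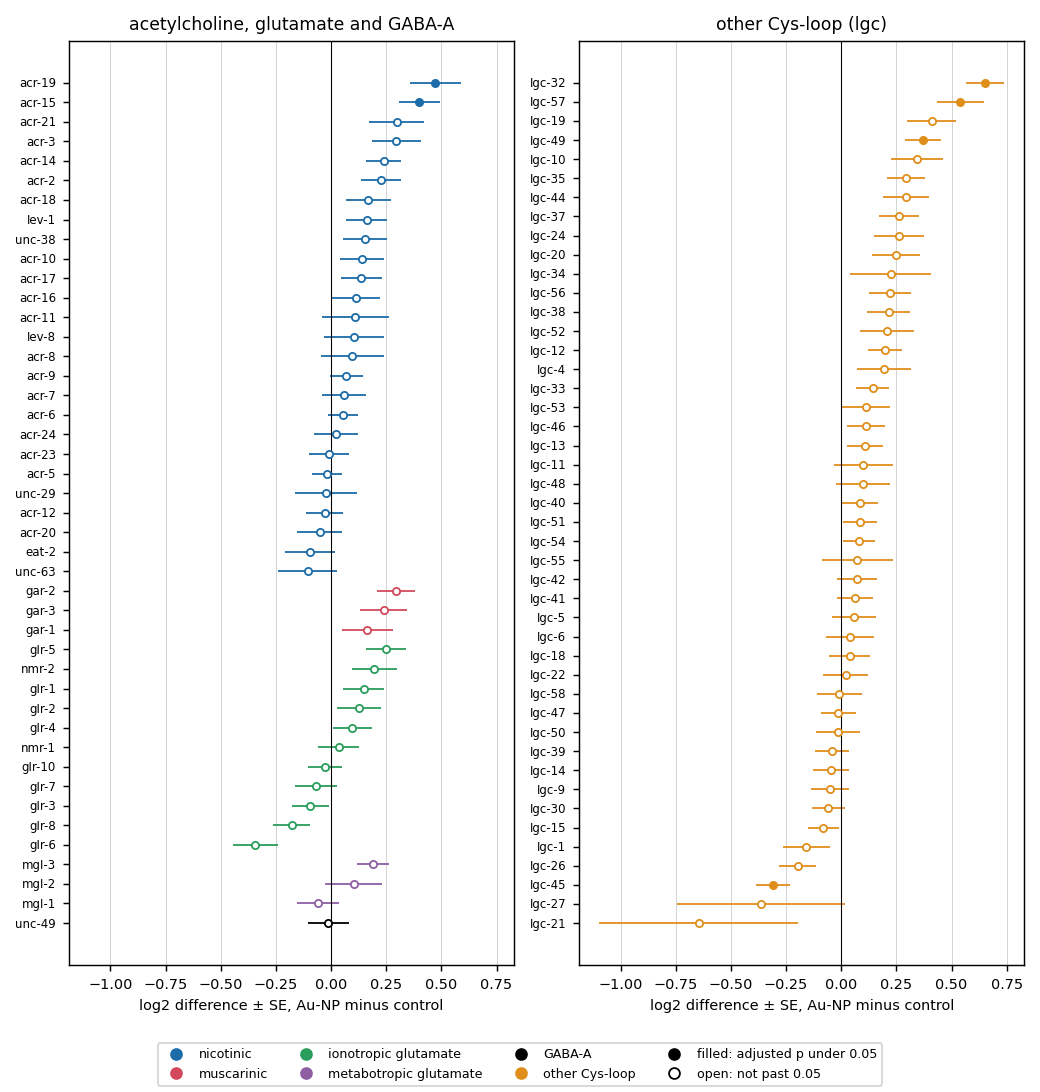
Log2 difference ± SE, Au-NP minus control, for each of the 89 receptor genes, ordered by size within each family, with the other Cys-loop genes on the right, filled points past an adjusted p of 0.05 and open points not. Filled points are acr-19 and acr-15 among the nicotinic genes and lgc-32, lgc-57, lgc-49 and lgc-45 among the lgc genes, and the widest bars are those of lgc-21 and lgc-27.

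The 45 lgc genes held 3 of the 5 that rose and the 1 that fell. All 4 belong to the 25 genes from lgc-32 upward, where 20 differences were above 0 and the median was 0.11. Of all tested probe sets, 6.24% were higher and 5.68% lower. An unadjusted p below 0.05 in limma was reached by 7 of the 25 genes (28%), against 26.5% of all probe sets. The 20 genes below lgc-32 had 12 differences above 0, a median of 0.04, and 0 past the threshold in limma, with 4 (20%) past an unadjusted p of 0.05, against 26.5% of all probe sets. Without Au-NP replicate 3 that median was -0.01. The difference between these 2 groups of genes was not tested. lgc-35, which encodes a GABA-gated cation channel, read 6.75, 6.75 and 6.57 in Au-NP worms, against 6.46, 6.42 and 6.31 in control worms. The groups were separate. The difference was 0.29 ± 0.09 (limma, adjusted p = 0.0682), and it passed without Au-NP replicate 3 (adjusted p = 0.0324). The acetylcholine-gated chloride channel gene lgc-46 differed by 0.11 (95% interval -0.09 to 0.32) and the tyramine-gated chloride channel gene lgc-55 by 0.07 (-0.31 to 0.45). lgc-19, singled out after its values were seen, read 6.11, 5.93 and 5.78 in Au-NP worms, against 5.68, 5.47 and 5.45 in control worms, and just missed the threshold (0.41 ± 0.11, limma, adjusted p = 0.0545).

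lgc-21 and lgc-27 varied more within the Au-NP group than any other receptor gene, with SDs of 1.01 and 0.82. The signal of lgc-21 was 7.79, 8.33 and 9.75 in Au-NP replicates 1 to 3, against 9.32, 8.97 and 9.52 in control replicates 1 to 3. Au-NP replicates 1 and 2 lay below every control, and Au-NP replicate 3 lay above every control. The difference of -0.65 ± 0.45 did not pass (limma, adjusted p = 0.442). Leaving out Au-NP replicate 3 gave -1.21, which did (adjusted p = 0.00439). The signal of lgc-27, named after its values were seen, was 7.66, 7.84 and 9.17 in Au-NP worms, against 8.79, 8.22 and 8.75 in control worms. The pattern of high and low arrays was the same. The difference was -0.36 ± 0.38 (limma, adjusted p = 0.636), or -0.84 without Au-NP replicate 3 (adjusted p = 0.0117). For both genes the call thus rested on whether 1 array was kept. Of 8 markers of hypodermis, rol-6, dpy-7 and wrt-2 were singled out after their values were seen. They were also higher in Au-NP replicate 3 than in the mean of Au-NP replicates 1 and 2, by 1.32, 1.06 and 0.79. The remaining markers of that list are not given here for this array. Over the 8 markers the median difference between groups was 0.006, or -0.04 without Au-NP replicate 3, and 0 passed in either direction. The part of these markers in the values of lgc-21 and lgc-27 was not tested. lgc-34, also singled out after its values were seen, had its highest signal in the same array, 10.36, against 9.62 and 9.74 in the other two Au-NP arrays and 9.73, 9.62 and 9.71 in control worms.

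**Figure D5:**
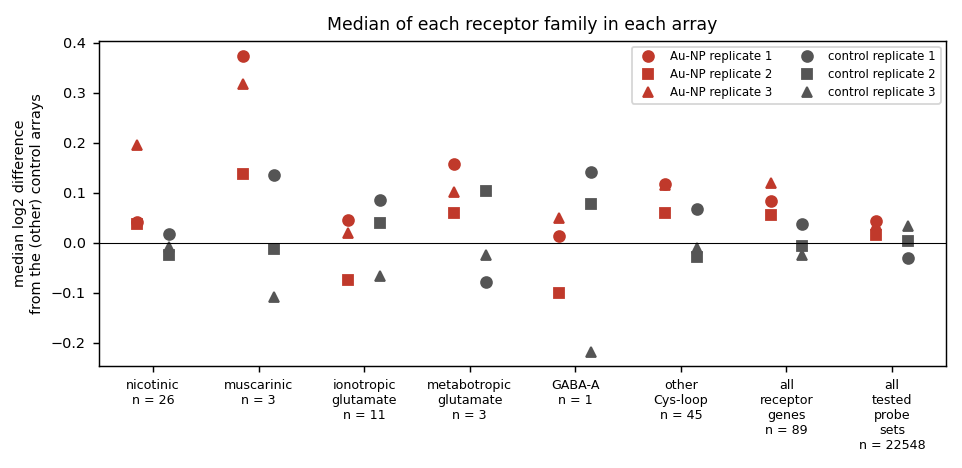
Median over the genes of each family of the log2 difference between an array and the mean of the control arrays (for a control array, the mean of the other two), Au-NP arrays on the left and control arrays on the right within each family, with all receptor genes and all tested probe sets at the right. For all receptor genes the 3 Au-NP medians, 0.08, 0.06 and 0.12, lie above the control medians of 0.04, -0.01 and -0.02, and for the muscarinic genes Au-NP replicate 2, at 0.14, lies level with control replicate 1.

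Other genes of these signalling systems were taken from lists by role, of which the GABA list includes 1 of the genes above, lgc-35, and shares 3 genes with the list of further receptors. Of 18 measured receptor genes outside the symbol rule, 2 rose and 0 fell, where 7.09% of all genes rose and 4.45% fell. The median of the 18 was 0.19. The genes that rose were glc-2 and glc-1, subunits of the glutamate-gated chloride channels targeted by ivermectin. The signal of glc-2 was 9.89, 9.86 and 9.66 in Au-NP worms, against 9.03, 9.05 and 9.21 in control worms, a difference of 0.70 ± 0.10 (limma, adjusted p = 0.00764). The signal of glc-1 was 11.62, 11.50 and 11.36 in Au-NP worms, against 11.02, 11.04 and 10.75 in control worms, a difference of 0.55 ± 0.11 (adjusted p = 0.0224). Both genes were separated between the groups in all arrays.

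Of all genes, 4.45% fell and 7.09% rose, to be set beside each count that follows. On the presynaptic side, 1 of 7 genes for making, loading and breaking down acetylcholine fell and 0 rose. This was unc-17, the vesicular acetylcholine transporter, with 7.80, 7.36 and 7.46 in Au-NP worms, against 8.52, 8.36 and 8.25 in control worms. All of its 3 probe sets passed. The difference was -0.84 ± 0.13 (limma, adjusted p = 0.0113). Of 12 genes for assembling and clustering acetylcholine receptors, 2 fell and 0 rose. They were lev-10, which clusters levamisole-sensitive receptors at the neuromuscular junction, and nra-4, which regulates receptor subunit composition. The signal of lev-10 was 9.29, 8.91 and 8.94 in Au-NP worms, against 10.03, 9.93 and 10.02 in control worms. Its groups were the most clearly separate of this list, and 3 of its 3 probe sets passed. The difference was -0.95 ± 0.11 (limma, adjusted p = 0.00578), while nra-4 differed by -0.36 ± 0.09 (adjusted p = 0.0483).

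For the lists that follow, the shares of all genes were again 7.09% higher and 4.45% lower. Of 15 genes for glutamate transport and receptor trafficking, the transporter genes glt-5 (0.60 ± 0.09) and glt-3 (0.46 ± 0.09) rose, and the clathrin adaptor gene unc-11 fell (-1.10 ± 0.16). Only 1 of the 10 probe sets of unc-11 passed. Of 13 genes for GABA synthesis, transport and receptor clustering, 0 passed in either direction in limma. An unadjusted p below 0.05 was reached by 2 of the 13, against 26.4% of all genes. A probe set other than the one used passed for nlg-1 (1 of 2) and unc-44 (1 of 9), both named after their values were seen. Of 9 genes for G proteins acting below the muscarinic and metabotropic receptors, 1 rose and 2 fell. The gene that rose was rgs-3, a regulator of G protein signalling (0.33 ± 0.07), and among those that fell was egl-30, the Gq alpha subunit. The signal of egl-30 was 9.99, 9.58 and 9.71 in Au-NP worms, against 10.88, 10.52 and 10.54 in control worms, and the groups were separate. Its difference was -0.89 ± 0.14 (limma, adjusted p = 0.0114) with 2 of 2 probe sets passing.

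Tissue markers moved in part with the groups. Their counts stand beside 7.09% of all genes higher and 4.45% lower. Of 16 neuronal markers, 3 rose, among them unc-119 and ric-19, and egl-3 and ida-1 fell, with a median of 0.11 and mean signals of 9.29 to 9.36 in Au-NP arrays and 9.23 to 9.33 in control arrays. Of 8 markers of pharyngeal muscle, 5 fell and 0 rose, with mean signals of 8.92 to 9.16 in Au-NP arrays and 9.56 to 9.68 in control arrays. Germ line markers had 5 of 10 fall and 0 rise, and intestine markers had 1 of 9 in each direction. Hypodermis markers had 0 of 8 in either direction (limma), with 2 at an unadjusted p below 0.05, against 26.4% of all genes. The hypodermis markers had mean signals of 9.850 to 10.452 in Au-NP arrays and 10.004 to 10.303 in control arrays. The RMA scale has no true 0, so no marker can be said to be absent, and the part of these markers in the receptor values was not tested.

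The calls were also set against signal and gene length. In the lowest quartile of signals 1 of 24 receptor genes rose, where 0.213% of all probe sets in that quartile did, and in the second quartile 3 of 46 rose and 1 fell, where 2.54% and 3.83% did. In the third quartile it was 0 of 13, where 8.28% of all probe sets were higher and 9.37% lower, and in the fourth 1 of 6 rose, where 13.9% were higher and 9.19% lower. Receptor genes had a median span, from gene start to end in assembly WBcel235, of 4422.5 bp, against 2423 bp over all probe sets with a span. With the trend of signal with span removed from each array, 12 of 88 receptor genes were higher (13.6%, where 5.44% of all probe sets were) and 0 lower (4.60% of all), and the median was 0.15. The 12 were acr-2, acr-15, acr-19, gar-2, gar-3, mgl-3, lgc-10, lgc-19, lgc-32, lgc-38, lgc-49 and lgc-57.

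Of the genes with more than 1 probe set, 7 of 10 had all probe sets on one side of 0, the exceptions being glr-2, lgc-33 and unc-49. Possible cross-hybridization is marked for the used probe set of 14 receptor genes, among them gar-1, gar-3, glr-1 and the called gene lgc-49.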

How the data were processed

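Values were measured on Affymetrix arrays, 3 labelled Au-NP and 3 labelled control. The authors deposited log2 signals, 1 per probe set and array. The submitters' processing notes list RMA and Partek 6.4, the second with no role given. The log2 scale was read from the range of the values. RMA normalizes arrays together and compresses low signals. The array's genome build is not given in the sources used here, so no coordinates or sequences are printed. The number of arrays limits the precision.

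After 77 control probe sets were left out, Au-NP and control arrays were compared in R 4.3.3 by limma 3.58.1 (functions lmFit and eBayes, no covariates, two-sided, Benjamini-Hochberg over 22548 probe sets, threshold 0.05). Errors are moderated standard errors, with 4 residual and 3.39 prior degrees of freedom. Between 4 and 15 values were identical in any 2 arrays.

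The receptor genes, families and lists were chosen with earlier results of these data known. Named genes were those past the threshold, the largest difference of each sign per family, up to 4 called genes per list, and receptors known from the literature; others are said to be chosen after their values were seen. Of the G protein list, 1 called gene is not reported here. Alternatives were each array left out, a replicate block, normalization again, centring, signal filters, array weights, trend and robust variances, other thresholds, the mean of probe sets, no cross-hybridizing probe sets and removal of the trend with gene span. Gene spans came from a reference table of assembly WBcel235.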

Additional observations from a re-analysis of the deposited data

How the results depend on the processing

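Of the 6 called receptor genes lgc-32 passed in all 18 alternatives, and lgc-45 in the fewest, 6. A setting that left a gene out counts as not called. The thresholds of 0.01 and 0.1 use the same fit, so they add no separate check of a call. The receptor genes counted higher were 5 as reported, where 6.24% of all probe sets were higher. At an adjusted p of 0.01 there was 1 (1.12%, all probe sets 0.537%), and at 0.1 there were 9 (10.1%, all 11%). Array weights gave 8 (8.99%, all 10.5%). With signals below the median left out it was 1 of 19 (5.26%, all 13.9%). With the trend in gene span removed it was 12 of 88 (13.6%, all 5.44%). The fits without 1 array gave 1 to 7, where 0.648% to 9.08% of all probe sets were higher. Receptor genes counted lower were 1 as reported, where 5.68% of all probe sets were lower. There were 0 at an adjusted p of 0.01 (all 1.7%), 2 at 0.1 (2.25%, all 7.89%) and 2 with array weights (2.25%, all 8.05%). The count was 0 with signals below the median left out (all 10.5%) and with probe sets averaged per gene (all genes 4.52%). It was also 0 with the replicate block (all 5.2%), with trend and robust variances (all 5.62%) and with the span trend removed (all 4.6%). Leaving out 1 array gave 0 to 3, where 1.82% to 8.66% of all probe sets were lower. The median over receptor genes, 0.10, became 0.15 with signals below the median left out and 0.15 with the span trend removed. Of all probe sets, 1408 were higher as reported, 121 at an adjusted p of 0.01, 2484 at 0.1 and 2372 with array weights, with 146 to 2047 when 1 array was left out. Of those lower, 1281 as reported, there were 383 at 0.01, 774 with averaged probe sets and 628 without cross-hybridizing probe sets, with 410 to 1953 when 1 array was left out. Some settings use fewer probe sets or arrays, and the causes of these shifts were not tested.

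The labels do not say whether arrays with the same replicate number are paired. Deviations from the group mean correlated at -0.33, 0.43 and 0.22 between same-numbered arrays, which cannot settle this with 3 arrays per group. With the replicate block 4 receptor genes were higher (4.49%) and 0 lower, where 4.88% of all probe sets were higher and 5.2% lower.

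Some differences near 0 changed sign, none of them called in any of these settings. They were 0.0064 (centred) and 0.12 (span) for acr-23, -0.0059 (array weights) for lgc-55, -0.011 (array weights) for nmr-1, 0.063 (span) for mgl-1, 0.0014 (span) for unc-29, 0.015 (span) for unc-63, and 0.0027 (centred), 0.032 (averaged probe sets) and 0.15 (span) for unc-49. Leaving out 1 array moved acr-12 between -0.095 and 0.016, acr-23 between -0.072 and 0.066, acr-8 between -0.033 and 0.20, eat-2 between -0.16 and 0.0082, lev-8 between -0.042 and 0.18, lgc-55 between -0.065 and 0.21, mgl-1 between -0.12 and 0.0017, mgl-2 between -0.025 and 0.23, nmr-1 between -0.038 and 0.099, unc-29 between -0.14 and 0.090 and unc-49 between -0.085 and 0.034. Low signals limit these values, since RMA compresses them and no detection calls were used.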
